A study of Mus musculus with 12 samples.

Results

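The mucin genes were followed at the level of DNA copy number in a pair of primary murine PDAC lines, 15376T and 14837T. The members are 10 genes chosen by name: Muc6, Muc2, Muc5ac, Muc5b, Muc1, Muc4, Muc20, Muc13, Muc16 and Muc15. All 10 were found among the 22035 gene names of the copy-number segments of each line, each in 1 segment per line. The lines were isolated from C57BL/6 mice whose alleles include ROSA26-LSL-rtTA-IRES-GFP, p48-Cre and Trp53 L/+. The labels give both lines the genotype WT, which here sets them apart from the LIN28B knockout. Cre is driven by p48, a gene of the pancreatic lineage. Each line was grown in culture and exome-sequenced as 1 library, WES-15376T and WES-14837T (below 15376T and 14837T), so none of the values below has a replicate and no test between the lines was possible. Neither the RNA-seq of the lines nor the tail DNA was analysed here, so nothing below speaks of mucin expression.

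Mucins are large glycoproteins whose serine- and threonine-rich repeats carry dense O-linked glycans. The secreted, gel-forming mucins are linked end to end into polymers that make mucus, and their genes lie side by side in the genome. The membrane-bound mucins form part of the glycocalyx of epithelial cells, and some of them signal through their cytoplasmic or EGF-like parts. In the human pancreas, MUC1, MUC4, MUC5AC and MUC16 are known from precursor lesions or carcinomas.

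Copy number was given for segments, runs of neighboring bins with a common coverage. A segment carries a log2 ratio (its coverage relative to a reference sample or pool that is not named), the authors' integer copy number, its mean read depth and a B-allele fraction (BAF, the share of reads with the non-reference allele). A log2 above 0.2 was called gained and one at or below -0.25 was called lost. The autosomal mean depth was 43.4 in 15376T and 47.5 in 14837T. Among segments of the autosomes at 2 copies, log2 had an SD of 0.090 in 15376T (103 segments) and 0.095 in 14837T (96 segments), which serves as the spread below. These segments were themselves picked by log2, above -0.25 and up to 0.2. The calls thus bound this SD, and it is not the error of a segment. For a difference between the lines, both SDs combined (the root of the sum of their squares) give 0.13. A gene table gave a gene its own depth and bins only where its segment reached an absolute log2 of 0.40, which listed 7 of the 10 members in 15376T and 6 in 14837T. Of all gene names it listed 36.0% in 15376T and 21.4% in 14837T.

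Most mucin genes lay in lost segments in both lines. In 15376T, 7 of 10 members were called lost and 3 were called at 2 copies, and none was called gained. In 14837T the same 7 genes were called lost, 2 were called at 2 copies and 1, Muc1, was called gained. Over 21839 gene names with a single segment in each line, 32.1% were called lost in 15376T, 27.7% in 14837T and 21.6% in both. Gains covered 8.73% of these names in 15376T and 20.6% in 14837T. The 7 lost members are not 7 separate events, since they lie in 2 segments of 15376T and 3 of 14837T. The median log2 of the members was -0.53 in 15376T and -0.37 in 14837T, against -0.029 and -0.049 over all names.

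The 7 lost genes had log2 values from -0.65 to -0.53 in 15376T and from -0.49 to -0.31 in 14837T. With calls at an absolute log2 of 0.5, all 7 genes were still lost in 15376T and 0 of 10 were lost in 14837T. The share of all names lost under that threshold was 29.0% in 15376T and 2.95% in 14837T. All 10 members had the lower log2 in 15376T, as did 60.6% of all names, and the members lie in 5 segments of 15376T and 6 of 14837T. The median difference was -0.16 over the members and -0.042 over all names.

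**Figure D1:**
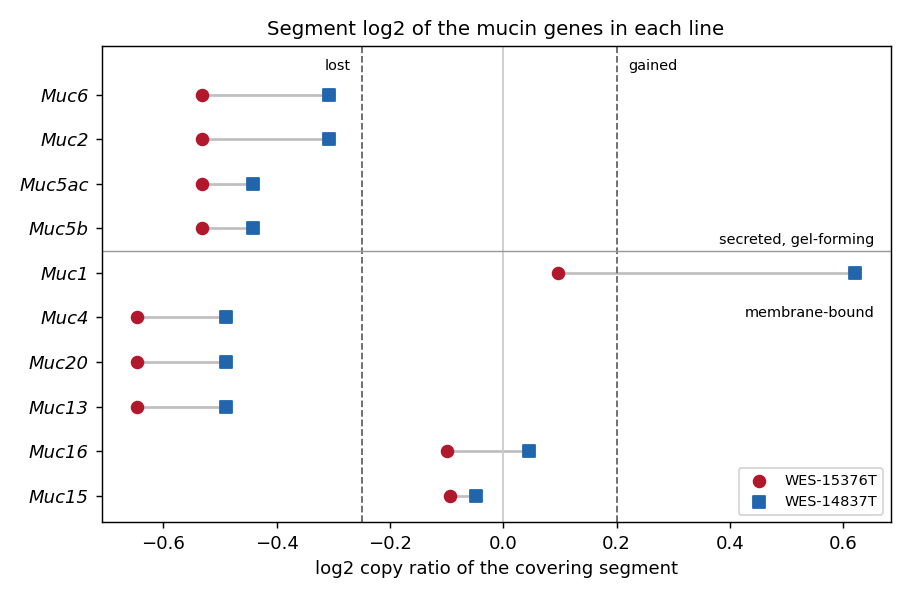
The log2 ratio of the segment that covers each mucin gene (x axis) is drawn for 15376T (circles) and 14837T (squares), with dashed lines at the thresholds for loss (-0.25) and gain (0.2). All 10 genes have the lower value in 15376T, 7 lie left of the loss threshold in both lines, and Muc1 alone passes the gain threshold, in 14837T.

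The gel-forming mucins were lost in both lines. Their genes form a cluster of 239.6 kb near the distal end of chromosome 7 (positions on GRCm38). Muc6, the mucin of gastric glands, lies from 141633459 to 141655393. Muc2, the main mucin of intestinal goblet cells, lies from 141690340 to 141754691. Muc5ac, the mucin of the gastric surface and the airway, lies from 141788958 to 141819227. Muc5b, a mucin of airway and salivary glands, lies from 141839059 to 141873089.

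In 15376T these 4 genes shared 1 segment of 122 Mb from 23274282 to 145340959, which spans nearly the whole chromosome. Its log2 was -0.53 over 13453 bins, and it was called at 1 copy. The only other segment of chromosome 7 had a log2 of -0.54, so the cluster did not stand apart from the rest of the chromosome in this line.

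In 14837T chromosome 7 was divided into 21 segments, of which 20 were called lost and 1 at 2 copies. Over all 21 segments, log2 ranged from -0.81 to -0.24. One of the borders fell inside the mucin cluster. Muc6 and Muc2 lay in a segment of 0.809 Mb from 140945203 to 141754545 with a log2 of -0.31 over 380 bins and 44 gene names. Muc5ac and Muc5b lay in the segment from 141755046 to 145340959 with a log2 of -0.44 over 626 bins. Both were called at 1 copy. The first of them ends at the last bin of Muc2, 146 bp before the annotated end of the gene, and the next begins 33.9 kb before Muc5ac.

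The step at this border was -0.13 on the log2 scale. It was among the smaller steps of the line, since 16.1% of the 205 borders within autosomes of 14837T were smaller and the median step was 0.23. Mean depth went from 39.6 to 33.7 across it. In 15376T, where the cluster had no border, the 4 genes had own depths of 32.8 for Muc6 (27 bins), 39.0 for Muc2 (46 bins), 39.6 for Muc5ac (47 bins) and 35.9 for Muc5b (45 bins). The depths of the genes on either side of the border thus overlapped in that line. Muc6 and Muc2 were not listed in 14837T, because their segment lay under the listing threshold, so the step could not be checked there with the genes' own depths.

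**Figure D2:**
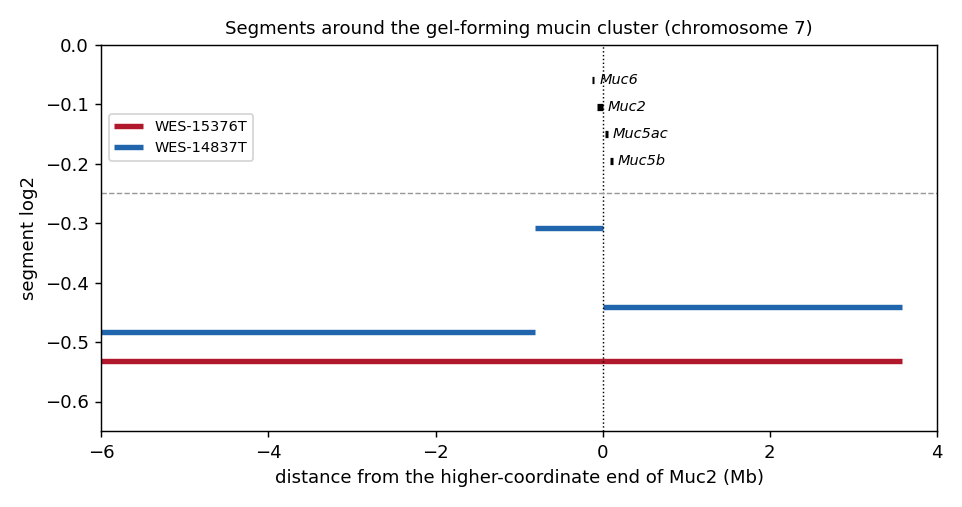
Segment log2 (y axis) is plotted against the distance in Mb from the higher-coordinate end of Muc2, with the 4 gel-forming mucin genes drawn as black marks and the loss threshold dashed. 15376T is flat at -0.53, whereas 14837T steps from -0.48 to -0.31 before the cluster and down to -0.44 at the end of Muc2.

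Within the cluster, the difference between the lines changed only through the border in 14837T. The log2 in 15376T minus that in 14837T was -0.22 for Muc6 and Muc2 and -0.090 for Muc5ac and Muc5b. The first is larger than the combined SD of 0.13 and the second is not. The step between them, -0.133, is within the SD of 0.135 for a difference between 2 segments of 14837T. Since that SD is not the error of these 2 segments, whether the 2 parts of the cluster differ was not settled. Genes beside the cluster followed it. Ap2a2, which encodes an adaptor subunit of clathrin coats, lies 0.448 kb from Muc6 and shared its segment in each line. Tollip, an adaptor of Toll-like receptor signaling, and the kinase gene Brsk2 shared the segment of Muc5b in each line.

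Among the membrane-bound mucins, Muc4, Muc20 and Muc13 were lost in both lines. They lie on chromosome 16, Muc4 from 32735886 to 32782391, Muc20 from 32777419 to 32797435 and Muc13 from 33794037 to 33819929. Muc4, whose product can bind the receptor ErbB2, overlaps Muc20 by 4.97 kb in the annotation, so bins in the overlap may count for both. The mucin encoded by Muc13 is found on the intestinal epithelium. The 3 genes shared 1 segment with the same borders in both lines, from 24608101 to 98082498, which is 73.5 Mb long. Its log2 was -0.65 over 4416 bins in 15376T and -0.49 over 4418 bins in 14837T, and it was called at 1 copy in each. The rest of chromosome 16 was a single segment in each line, called lost, with a log2 of -0.54 in 15376T and -0.40 in 14837T. The log2 difference between the lines for these genes was -0.16, against the combined SD of 0.13.

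Muc1 was the member with a different call in the lines. It encodes a mucin of the apical surface of glandular epithelia and lies on chromosome 3 from 89229056 to 89233381. Its segment in 15376T, from 87435826 to 94773690, had a log2 of 0.097 over 1384 bins and was called at 2 copies. Its segment in 14837T, from 85871628 to 96875734, had a log2 of 0.62 over 2203 bins and was called at 3 copies. The difference of -0.52 was larger than the combined SD of 0.13, and its size exceeded that of 94.9% of all gene names. The lines' own depths over these segments, each set against the segments at 2 copies of the line, gave a difference of -0.60. Calls differed between the lines for 31.2% of all gene names, and 12.8% were, like Muc1, at 2 copies in 15376T and gained in 14837T.

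The segment of Muc1 in 15376T lay on a chromosome that was mostly gained. Of the 24 segments of chromosome 3 in that line, 15 were called gained, 8 at 2 copies and 1 lost. Muc1 lay in a stretch of 15.6 Mb at 2 copies, from 79169657 to 94773690, made of its own segment and a neighbor with a log2 of -0.098. Segments with a log2 of 0.69 (70 bins) and 0.59 (596 bins), both called at 3 copies, lay on its sides. Segments at 2 copies made up 17.4% of the covered length of the chromosome in 15376T and 0.951% in 14837T. In 14837T the segments beside that of Muc1 were gained as well, with a log2 of 0.38 and 0.45, and the segment of Muc1 was the highest of these 3.

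Muc16 and Muc15 were called at 2 copies in both lines, as were 40.6% of all gene names. Muc16, which encodes the carrier of the CA125 antigen, lies on chromosome 9 from 18495445 to 18674821 and is the longest member at 179 kb. Its segment had a log2 of -0.10 over 991 bins in 15376T and 0.045 over 190 bins in 14837T. In 14837T this segment, 4.44 Mb long, lay between segments called gained, with a log2 of 0.203 and 0.36. In 15376T the next segment, which begins 1.77 Mb past the gene, had a log2 of 0.099 and was called at 2 copies. The segment of Muc16 had the lowest density of bins among those of the members in 14837T, 42.8 per Mb against 469.5 per Mb for that of Muc6 and Muc2. The difference of -0.14 between the lines was close to the combined SD of 0.13, and was -0.018 when computed from the lines' own segment depths.

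**Figure D3:**
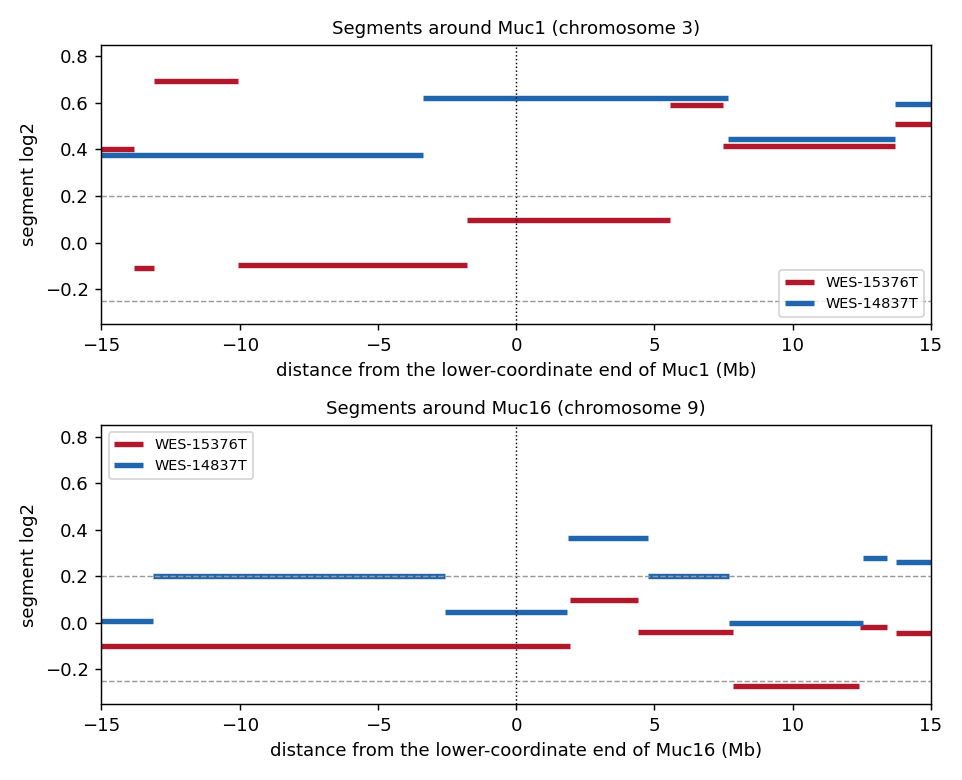
Segment log2 (y axes) is plotted against the distance in Mb from the lower-coordinate end of Muc1 (upper panel) and of Muc16 (lower panel), marked by dotted lines, with dashed lines at the call thresholds. At Muc1 15376T lies at 0.097 and 14837T at 0.62, and at Muc16 both lie between the thresholds while 14837T is above the gain threshold on either side.

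Muc15, which encodes a small membrane-bound mucin, lies on chromosome 2 from 110721494 to 110739537, within the annotated span of Ano3. Its segment had a log2 of -0.093 over 1111 bins in 15376T and -0.049 over 8567 bins in 14837T. The difference of -0.044 was smaller than the combined SD of 0.13. From the lines' own segment depths it was -0.27, where the segments compared were of unequal length, 20.0 Mb in 15376T and 83.1 Mb in 14837T.

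The BAF of the segments set Muc15 apart from the other members. It was 0.31 in 15376T and 0.21 in 14837T, against an autosomal median weighted by length of 0.077 and 0.061. The authors' allele calls gave this segment 1 copy of each allele in 15376T and 2 copies of one allele in 14837T. Among the members, only the call in 15376T was particular to Muc15. Every other member had 0 copies of the second allele in both lines. The share of all gene names with 0 copies of the second allele was not computed. These calls are therefore not read as the loss of an allele. For Muc16 the BAF was 0.17 in 15376T and 0.056 in 14837T. For the gel-forming mucins it was 0.094 in 15376T, and in 14837T it was 0.063 for Muc6 and Muc2 and 0.053 for Muc5ac and Muc5b. The segment of Muc4, Muc20 and Muc13 had 0.086 in 15376T and 0.055 in 14837T, and that of Muc1 had 0.034 and 0.037. The number of variants behind a BAF was not given, so its error is unknown.

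Own depth is the only value of a gene that is not that of its segment. It was set against the median depth of the other listed genes of the same segment with at least 5 bins. Muc13 stood highest. Its depth was 50.0 in 15376T and 55.3 in 14837T over 10 bins, where the 258 other genes had a median of 34.7 and 40.4. On the log2 scale Muc13 was 0.53 above the median in 15376T and 0.45 above it in 14837T, at the 94.6th and 90.3rd percentile of these genes. The SD among the other genes was 0.46 and 0.47, so Muc13 lay near 1 SD above the median in both lines. Set against the mean depth of the whole segment instead, Muc13 was 0.78 and 0.70 above it. The neighbor Itgb5, an integrin gene 9.74 kb from Muc13, had a depth of 31.4 in 15376T and 36.0 in 14837T.

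The other listed members lay within 1 SD of the median of their segment. Muc4 had a depth of 39.6 in 15376T and 46.9 in 14837T over 26 bins, and Muc20 of 38.1 and 45.7 over 8 bins. These are log2 values of 0.19 and 0.21 above the median for Muc4 and of 0.14 and 0.18 for Muc20. Against the mean depth of the segment they were 0.45 and 0.46 for Muc4 and 0.39 and 0.42 for Muc20. In 15376T, Muc5ac was 0.27, Muc2 was 0.25, Muc5b was 0.13 and Muc6 was 0.00019 above the median of the other genes. With genes of any number of bins as neighbors, Muc6 was -0.072 from the median. In 14837T, Muc5ac with a depth of 42.9 was 0.22 and Muc5b with a depth of 37.7 was 0.029 above the median of 38 genes.

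Muc1 was listed only in 14837T, with a depth of 97.4 over 6 bins, 0.29 above the median of 162 genes and at their 76.5th percentile. Its neighbors in that segment showed how widely depth varied at one copy-number call. Mtx1 had a depth of 97.6 (7 bins), Thbs3 of 80.9 (19 bins), Trim46 of 39.8 (12 bins) and Krtcap2 of 106 (5 bins), all within 15.1 kb of Muc1.

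**Figure D4:**
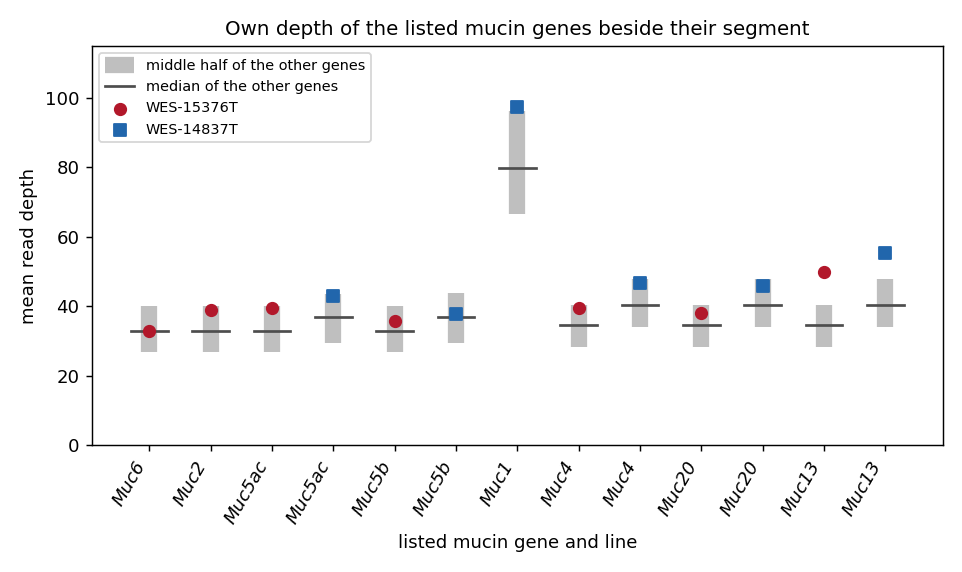
Mean read depth (y axis, from 0) is shown for each listed mucin gene in each line, beside the other listed genes of its segment with at least 5 bins, whose median is a line and whose range from the 25th to the 75th percentile is a gray bar. Muc13 lies above the bar in both lines at 50.0 and 55.3, and Muc1 lies just above it at 97.4 in 14837T.

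Between the lines, the same gene can be compared over the same bins. This was possible for 5 members. The log2 ratio of own depth in 15376T to that in 14837T, set against the ratio of the lines' mean depths, was 0.014 for Muc5ac, 0.061 for Muc5b, -0.11 for Muc4, -0.13 for Muc20 and -0.015 for Muc13. Set on the depth of segments at 2 copies instead, the ratio was -0.072 for Muc5ac, -0.025 for Muc5b, -0.20 for Muc4, -0.22 for Muc20 and -0.10 for Muc13, so the sign turned for Muc5ac and Muc5b. With mean depths the ratio exceeded the difference of the segments' log2 by 0.025 for Muc20 to 0.15 for Muc5b. With segments at 2 copies it lay between -0.061 for Muc20 and 0.065 for Muc5b from that difference, and was below it for Muc4 and Muc20. Over the 1985 autosomal genes that both gene tables list over 5 or more identical bins, the median of the excess with mean depths was 0.047 and its SD 0.15. Relative to that median, which moves with the scaling as the members do, these 5 members lay between -0.021 and 0.10, all within 1 SD. For these 5 genes, no difference between the lines beyond that of the segment was detectable at this precision. A change shared by both lines would cancel in this ratio and could not be seen.

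The genes that build and pack mucins were also placed on the segments, from lists chosen by role. Of 14 other mucin and mucin-like genes, 7 were found. None was called lost in either line, where 2 were gained in 15376T and 3 in 14837T. Of all names, 32.1% and 27.7% were lost and 8.73% and 20.6% gained in 15376T and 14837T. Emcn, which encodes the sialomucin of endothelium, had a log2 of 0.49 in 15376T and 0.50 in 14837T. Ovgp1, the oviductal glycoprotein, had 0.51 and 0.39. Both lie on chromosome 3, where 15 of 24 segments were called gained in 15376T and 18 of 19 in 14837T. Mucl3 had 0.074 in 15376T and 0.43 in 14837T, and was the only one of the 7 with different calls, against 31.2% of all names. Muc3, a membrane-bound mucin of the intestine, stayed at 2 copies, with 0.094 and 0.050.

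The enzymes that start O-glycans, the Galnt family, add the first sugar to serine or threonine. Of 19 genes, 4 were lost and 0 gained in 15376T, and 4 were lost and 3 gained in 14837T. Of all names, 32.1% and 27.7% were lost and 8.73% and 20.6% gained in 15376T and 14837T. Calls differed between the lines for 6 of the 19 genes, against 31.2% of all names. Galnt15 had a log2 of -0.59 in 15376T and -0.33 in 14837T, and Galnt18, on the same chromosome as the gel-forming mucins, had -0.53 and -0.33. Galnt1 was called lost in 15376T, with -0.62, and at 2 copies in 14837T, with -0.13. Galnt12 had -0.59 in 15376T, called lost, and 0.202 in 14837T, just past the threshold of 0.2. At an absolute log2 of 0.3 the gain was not called. Galnt4 was at 2 copies and lost, with -0.00033 and -0.37, and Galnt17 likewise, with 0.054 and -0.31. Galnt17 spanned a border in 15376T, where 0.054 is the value of the side that holds most of it. Galnt6 and Galnt14 were at 2 copies in 15376T (0.0086 and 0.0056) and gained in 14837T (0.33 and 0.28).

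The next sugars are added by another 10 enzymes of the lists. Of these, 3 were lost and 1 gained in 15376T, and 2 were lost and 2 gained in 14837T, beside the same shares of all names. C1galt1, the synthase of the core 1 glycan, had a log2 of -0.0021 in 15376T and -0.045 in 14837T and was at 2 copies in both. Its chaperone gene C1galt1c1 on chromosome X had -0.253, called lost just past the threshold of -0.25, and -0.16, called at 2 copies. Its loss was not called with recentred log2, or at an absolute log2 of 0.3 or 0.5. The thresholds were the same for chromosome X, and the sex of the line and of the reference was not considered here. Of names on the autosomes alone, 30.1% were lost in 15376T and 28.8% in 14837T. B3gnt6, the core 3 synthase, had -0.53 in 15376T and -0.34 in 14837T. Gcnt3, which makes core 2 and core 4 branches, had -0.53 and -0.029, and the core 2 enzyme Gcnt1 had -0.030 and 0.36. Gcnt4 had 0.081 and -0.38. The sialyltransferase St3gal1 was gained in each line, with 0.26 and 0.24.

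Of 12 genes that fold, pack or regulate mucus, 4 were lost and 1 gained in 15376T, and 3 were lost and 5 gained in 14837T. Losses again stood beside 32.1% and 27.7% of all names and gains beside 8.73% and 20.6%. The trefoil factor genes Tff1, Tff2 and Tff3, whose peptides are secreted with mucins, and Spdef, a transcription factor of goblet cells, lie on chromosome 17. They had a log2 of 0.074 in 15376T and 0.34 in 14837T, where all 4 were called gained. They share 1 segment in each line, so 4 of the 5 gains in 14837T come from that segment. Fcgbp and Zg16, which encode mucus proteins of the intestine, and Foxa3 were lost in both lines with the rest of chromosome 7, with -0.53, -0.53 and -0.54 in 15376T and -0.31, -0.30 and -0.42 in 14837T. Klf4, a factor of epithelial differentiation, had -0.59 and -0.091. Clca1, a secreted protease that acts on mucus, was gained in each line. It had a log2 of 0.65 in 15376T and spanned a border in 14837T, with 0.69 on the side that holds most of it and 1.06 on the other. Agr2, which aids the folding of mucins, stayed at 2 copies, with 0.13 and 0.14.

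Together, 48 genes of these 4 lists were found, of which 11 were lost and 4 gained in 15376T, and 9 were lost and 13 gained in 14837T, with a median log2 of 0.0071 and -0.030. Of all names, 32.1% were lost and 8.73% gained in 15376T, and 27.7% were lost and 20.6% gained in 14837T. Calls differed between the lines for 16 of the 48, against 31.2% of all gene names.

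**Figure D5:**
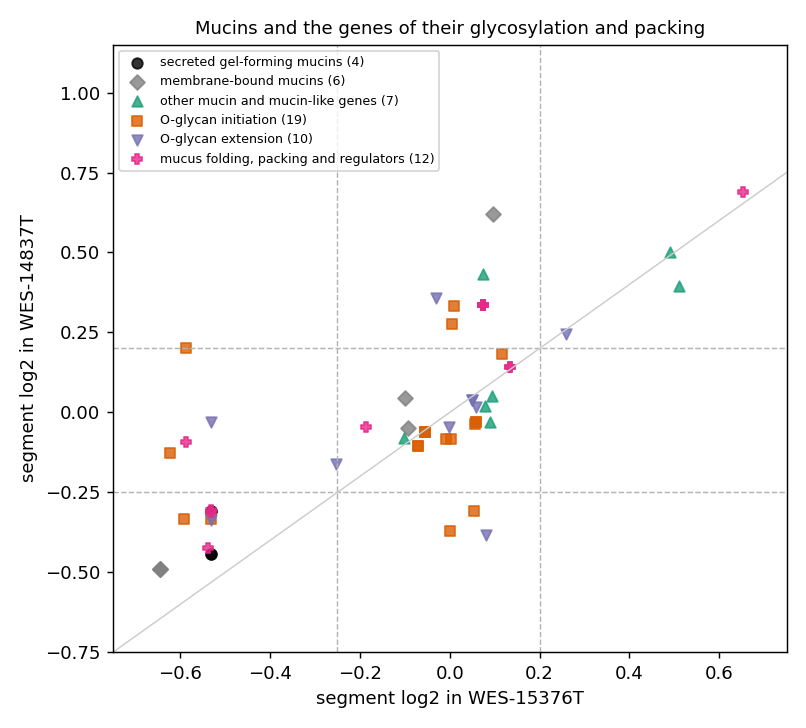
Segment log2 in 14837T (y axis) is plotted against that in 15376T (x axis) for the mucin genes and the 4 lists of related genes, with the call thresholds dashed and the line of equal values in gray. Genes that share a segment fall on the same point, the lost mucins lie at the lower left, and Muc1 lies at 0.097 and 0.62.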

How the data were processed

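Exome capture DNA of the lines 15376T and 14837T was sequenced as 1 library each. Part of the genotype of the mice is not reported here. The methods and the labels name different human exome kits, and the DNA is from mouse. The build is mm10 per the submitters' processing notes, and 13 of 13 listed member positions overlapped RefSeq genes of GRCm38.p6. The aligner, the copy-number program and its reference are not given in the sources used here; the column names are those of CNVkit. The authors deposited, for each segment and gene, a log2 ratio of coverage, a BAF as a fraction, mean read depth as a coverage signal without normalization, and integer copy numbers, bins and weights, which are scores. Copy numbers followed the default CNVkit thresholds with 0 exceptions up to 3 copies. Starts were written counting from 1. Members were found by name in the segment tables, and a gene named in several segments was placed by its largest overlap. Shares of all genes used the 21839 names in 1 segment of each line. Other names of the lists not found by symbol or synonym (7) are not analysed here.

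Values were computed with Python 3.11.15, numpy 2.4.6 and pandas 2.3.3, and placing, calling and relative depth were tested on simulated data. The members and lists were chosen with earlier results of these data known. All 10 members are named, with genes of the lists whose call differed or whose absolute log2 reached 0.4, and a few others by role, chosen after their values were seen. Alternatives were other thresholds, recentred log2 and other depth references. The tables hold no read counts per bin, which leaves the error of a segment unknown.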

Additional observations from a re-analysis of the deposited data

Results flagged for a closer look

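Galnt12, one of the enzymes that start O-glycans, had opposite calls in the lines. Its segment was lost in 15376T (log2 -0.59) and gained in 14837T (log2 0.202), a difference of -0.79. The gain lay just past the threshold of 0.2 and was not called at an absolute log2 of 0.3. With 1 library per line the difference was not tested.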

How the results depend on the processing

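Recentring log2 on the autosomal median, which was -0.040 in 15376T and -0.049 in 14837T, kept each count of calls within 1.5 times its value. A threshold of 0.5 on the absolute log2 moved the most calls. For the mucin members it gave 0 lost and 9 at 2 copies in 14837T, and 8 with a different call in the lines. Of these 8, 7 are the genes lost in 15376T, which lie in 2 segments of that line and 3 of 14837T. At 0.5, 32.3% of all names had a different call. Of all names, 29.0% and 2.95% were lost and 2.39% and 4.13% gained in 15376T and 14837T. For other mucin and mucin-like genes it gave 1 gained in 15376T, 1 gained in 14837T and 2 with a different call. In 14837T it gave 0 gained, 0 lost and 19 at 2 copies for O-glycan initiation, 0 gained, 0 lost and 10 at 2 copies for O-glycan extension, and 1 gained, 0 lost and 11 at 2 copies for mucus genes. For O-glycan extension it also gave 0 gained in 15376T and 2 with a different call. At 0.3, O-glycan initiation had 1 gained in 14837T, and O-glycan extension 0 gained in 15376T and 1 in 14837T. Of all names, 8.11% were gained in 15376T and 16.6% in 14837T at 0.3. The 7 mucin losses had log2 values below -0.5 in 15376T and above it in 14837T. The gene table repeats the segment log2, so it could not move a value. The log2 difference of Muc16 (-0.018) and Muc15 (-0.27) moved when taken from segment depths, and the cause was not tested. None of the 13 own depths moved by 1 SD with other sets of neighbors, and the sign of that of Muc6 turned (-0.072). The sign of the own-depth ratio between the lines turned for Muc5ac (-0.072) and Muc5b (-0.025) on segments at 2 copies.

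No paired analysis was possible because only 1 exome library per line was analysed, without a test. Losses and gains are given by segment, so a change of a few exons was not detectable.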
